A study of Rattus norvegicus with 24 samples.

Results

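The miRNA described here is rat miR-339, which is listed with both of its mature arms, rno-miR-339-5p and rno-miR-339-3p. They were found by name, as 2 of the 728 miRNAs that the cortical and the thalamic count tables share, and both arms passed the filter on low counts in every comparison. Small RNA was sequenced from 24 libraries of 12 adult male Sprague-Dawley rats. Of these, 6 had lateral fluid-percussion injury (TBI), a pulse of fluid against the exposed dura, and 6 were sham-operated controls that had anesthesia and surgery without the impact. Each rat gave 1 library of the perilesional cortex and 1 of the ipsilateral thalamus, taken 3 months after the operation, so that the 4 groups hold 6 libraries each. The TBI rats had been selected by magnetic resonance imaging for a chronic inflammatory rim around the lesion, and they are a model of that outcome rather than of every injured rat.

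A miRNA is cut from a hairpin precursor first by Drosha in the nucleus and then by Dicer in the cytoplasm, which leaves a duplex of a 5p and a 3p strand. One strand is usually kept by an Argonaute protein and the other is degraded, although for some hairpins both are found. The kept strand lowers the translation and stability of mRNAs that pair with its seed, so that the 2 arms of a hairpin address different mRNAs. In human cells, miR-339-5p has been studied as a repressor of BACE1, the protease that starts the cleavage of the amyloid precursor protein into amyloid beta.

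Both mature sequences are shown because the seeds, bases 2 to 8 in capitals, set what each arm can pair with. The sequences were taken from RefSeq (assembly GRCr8).

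rno-miR-339-5p: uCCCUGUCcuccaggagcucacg

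rno-miR-339-3p: uGAGCGCCucgacgacagagcca

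The 5p arm lies at chr12:20391410-20391432 and the 3p arm at chr12:20391445-20391467 on the plus strand of GRCr8. Each arm has 23 bases, of which 65.2% are G or C, and 12 bases separate them in the precursor. The hairpin, at chr12:20391395-20391490, lies within the span of the protein-coding gene C12h7orf50. The precursor is shown with both arms in capitals, as it gives their order and the loop between them.

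Mir339 hairpin: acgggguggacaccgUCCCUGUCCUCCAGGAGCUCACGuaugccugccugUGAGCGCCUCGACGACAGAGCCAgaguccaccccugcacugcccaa

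In a fold of the hairpin predicted by RNAfold, 16 of the 23 bases of the 5p arm paired with the 3p arm. The seeds of the 2 arms differed from each other, and neither was found in any other of the 655 table miRNAs that could be matched to a RefSeq sequence. Thus, the levels below are of 2 miRNAs with no seed relative among those matched.

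Library depth, as the sum of miRNA reads, ran from 744564 to 4069284 in cortex and from 523298 to 4139901 in thalamus. The levels of both arms are given as counts scaled to 1000000 miRNA reads per library (CPM) after trimmed mean of M-values (TMM) scaling over all 24 libraries. On this scale, the oligodendrocyte markers followed the dissection. All 4 were lower in cortex than in thalamus (adjusted p under 0.05, edgeR), where 84 of the 407 miRNAs tested were. Their summed level was 4694 to 6486 CPM in the TBI cortex and 13817 to 18154 CPM in the TBI thalamus. In sham rats it was 4807 to 5738 CPM in cortex and 12757 to 21100 CPM in thalamus. The 5 neuronal miRNAs were high in every group. No marker was at 0 in a whole group. In such bulk tissue, fewer cells of a type and less RNA per cell cannot be told apart.

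In the perilesional cortex, miR-339-5p was higher in every TBI rat than in every sham-operated control under TMM scaling. This comparison is the one that brought miR-339-5p to attention, and its values are therefore given as a description with no test. The 6 TBI libraries ran from 110 CPM in rat 52 over a median of 125 CPM to 133 CPM in rat 24. The 6 sham libraries ran from 49.0 CPM in rat 38 over a median of 72.6 CPM to 87.5 CPM in rat 55. The groups thus did not overlap. Under TMM scaling over the 12 cortical libraries alone, 1.35% of the 371 miRNAs tested in cortex had every TBI library above every sham library. The groups of miR-339-5p did not overlap under scaling by library size either. Scaled to the study's 4 reference miRNAs, however, 5 of the 6 TBI rats were above the highest sham rat, as TBI rat 63 was at 93.3 CPM and sham rat 34 at 98.1 CPM.

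The mean cortical level of miR-339-5p in the 6 TBI rats was 123 CPM (SD 9.77), against 71.3 CPM (SD 14.3) in the 6 controls. The edgeR estimate was a log2 fold change of 0.83 (SE 0.16), or 1.78-fold, where the median of all miRNAs tested was 0.05. Of all miRNAs tested, 96.2% had a lower value. Read numbers behind these levels were moderate, from 92 to 313 reads in TBI and from 40 to 219 in sham. The library nearest the sham group, that of TBI rat 52, held 255 reads, and its 95% Poisson interval went from 97.0 to 124 CPM. That of sham rat 55 held 71 reads, and its interval went from 68.4 to 110 CPM, so the 2 libraries at the border could not be separated by counting error alone. These intervals cover counting error only, as PCR copies of 1 molecule are not independent.

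**Figure D1:**
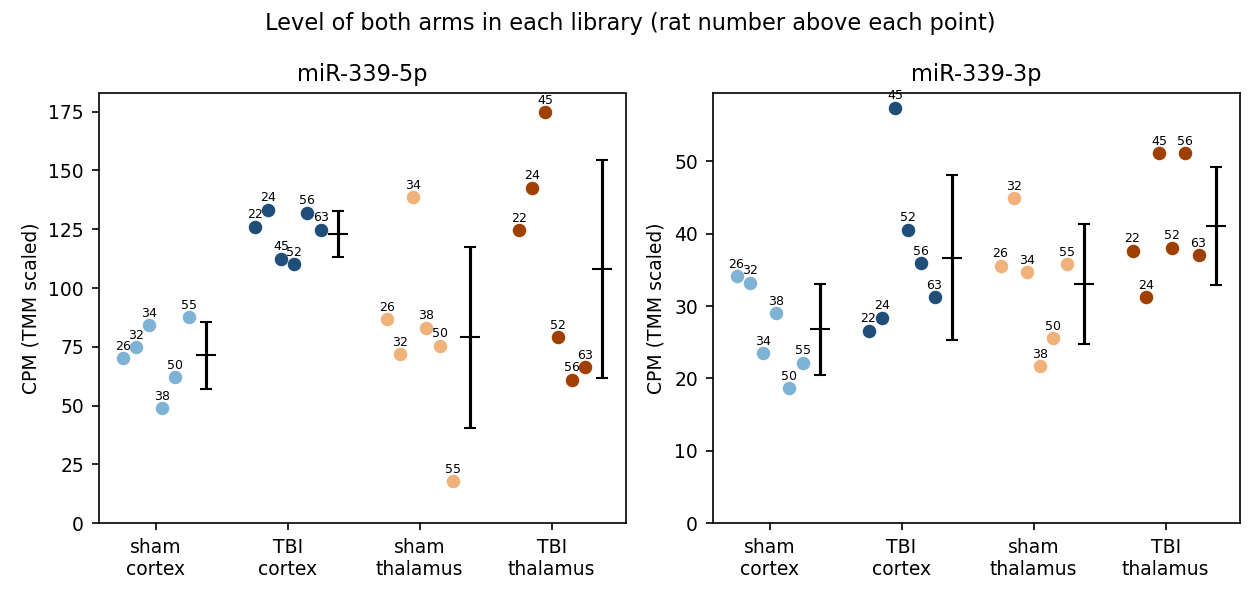
Level of miR-339-5p (left) and miR-339-3p (right) in TMM-scaled CPM for the 24 libraries, with 1 point per rat and the mean ± SD of each group of 6 in black. The 6 cortical TBI points of the 5p arm lie between 110 and 133 CPM, above all 6 sham points on this scale, while every other pair of TBI and sham groups overlaps.

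In cortex, the TBI rats were also close to each other in miR-339-5p under TMM scaling. This closeness is part of the comparison that chose the arm, and it is given as a description. On the log2 scale, the SD of miR-339-5p over the 6 cortical TBI libraries was 0.12, where the median over 407 miRNAs was 0.39, and 1.47% of miRNAs had a lower SD. In the cortical sham libraries it was 0.30, near the median of 0.32. The closeness of the TBI rats depended on the scaling. By library size the 6 cortical TBI libraries ran from 112 to 140 CPM, but scaled to the study's 4 reference miRNAs from 93.3 to 174 CPM. On the TMM scale, the thalamic SD of the same arm was 0.62 in TBI and 0.98 in sham, and in the latter group 91.9% of miRNAs had a lower SD. One library weighed on the sham value. Rat 55, with 8 reads, was at a log2 CPM of 4.24, and the remaining sham libraries ran from 6.19 to 7.13.

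The 3p arm separated the cortical groups less under TMM scaling. In TBI, miR-339-3p ran from 26.6 CPM in rat 22 over a median of 33.6 CPM to 57.4 CPM in rat 45. In sham, it ran from 18.7 CPM in rat 50 over a median of 26.3 CPM to 34.1 CPM in rat 26. Of the 6 TBI rats, 3 were above the highest sham rat, and the other 3 lay within the sham range. The mean was 36.7 CPM (SD 11.4) over the 6 TBI rats and 26.8 CPM (SD 6.29) over the 6 controls, and the edgeR estimate of the log2 fold change was 0.47 (SE 0.24). One library weighed on this value, since without TBI rat 45 it was 0.23. Under scaling by library size alone it was 0.70, where the median of all miRNAs was 0.25, and 5 of the 6 TBI rats were above the highest sham rat.

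The arms of a hairpin come from 1 precursor, and the fold changes of other hairpins give a scale for the gap between them. In cortex, the log2 fold change of miR-339-5p exceeded that of miR-339-3p by 0.36, where the median absolute gap over 101 hairpins with both arms tested was 0.21. Of these hairpins, 68.3% had a smaller gap. The value holds the contrast that chose the 5p arm and has no test.

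Markers of inflammatory cells were compared in the same cortical libraries. The summed level of 4 leukocyte and microglial miRNAs ran from 861 to 1872 CPM in TBI and from 788 to 1282 CPM in sham. None of the 4 passed the threshold (adjusted p under 0.05, edgeR), where 5.66% of all miRNAs did. At an unadjusted p under 0.05, 3 of the 4 passed, where 21.8% of all miRNAs did. Their log2 fold changes were all positive, from 0.46 for miR-150-5p to 1.05 for miR-223-3p, with a median of 0.56. The 5 neuronal miRNAs summed to 467444 CPM (SD 104048) over the 6 controls, against 303757 CPM (SD 34912) over the 6 TBI rats. Of these 5, only miR-128-3p, with a log2 fold change of -0.75, passed the threshold. It is also one of the study's candidates described below, which were picked from these libraries. The other neuronal miRNAs were at 0.15 (miR-124-3p), 0.15 (miR-124-5p), -0.17 (miR-9a-3p) and -0.27 (miR-9a-5p), and the median of the 5 was -0.17. The summed level weighs each miRNA by its abundance, so its difference does not describe the 5 as a set. The part of these marker differences in the level of miR-339-5p was not tested.

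miR-339-5p belongs to the 10 candidate miRNAs that the study picked from these cortical libraries. Of the 10, 9 were tested in cortex, where 6 were higher and 3 lower in TBI past the threshold (2.96% of all miRNAs were higher). Since the list was chosen on these samples, this count is not independent evidence. In thalamus, which did not choose the list, all 10 were tested and 0 passed the threshold by edgeR, where 0.513% of all miRNAs did. At an unadjusted p under 0.05, 2 of the 10 (miR-17-5p and miR-20a-5p, both higher in TBI) and 22 of the 390 miRNAs passed there. The median log2 fold change of the 10 in thalamus was 0.24, and that of all miRNAs tested was -0.03.

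The ipsilateral thalamus was not used to choose the miRNA, and there the difference between TBI and sham was tested. Neither arm passed the threshold. For miR-339-5p, the TBI libraries ran from 61.0 CPM in rat 56 over a median of 102 CPM to 175 CPM in rat 45. The sham libraries ran from 17.9 CPM in rat 55 over a median of 79.4 CPM to 139 CPM in rat 34. Thus 5 of the 6 sham rats were above the lowest TBI rat, and 2 TBI rats were above the highest sham rat. Among the 390 miRNAs tested in thalamus, 1.28% had every TBI library above every sham library, under TMM scaling over the 12 thalamic libraries alone.

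The thalamic log2 fold change of miR-339-5p was 0.45 (SE 0.36, 95% interval from -0.32 to 1.23, adjusted p = 0.815, edgeR quasi-likelihood test over 390 miRNAs). This interval includes both 0 and the cortical value of 0.83. An effect of the cortical size and no effect were both within the error of the thalamus data. The difference between the cortical and the thalamic effect was 0.35 (SE 0.41) for the 5p arm and 0.11 (SE 0.31) for the 3p arm. Under scaling by library size alone they were 0.62 and 0.40. These are descriptions, as they contain the cortical contrast.

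In the thalamus of TBI rats, miR-339-3p ran from 31.3 CPM in rat 24 over a median of 37.9 CPM to 51.1 CPM in rats 45 and 56. In sham rats it ran from 21.7 CPM in rat 38 over a median of 35.1 CPM to 44.9 CPM in rat 32. The mean was 41.0 CPM (SD 8.18) over the 6 TBI rats and 33.0 CPM (SD 8.26) over the 6 controls. The log2 fold change was 0.32 (SE 0.21, 95% interval from -0.14 to 0.77, adjusted p = 0.780, edgeR quasi-likelihood test), and the groups overlapped.

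**Figure D2:**
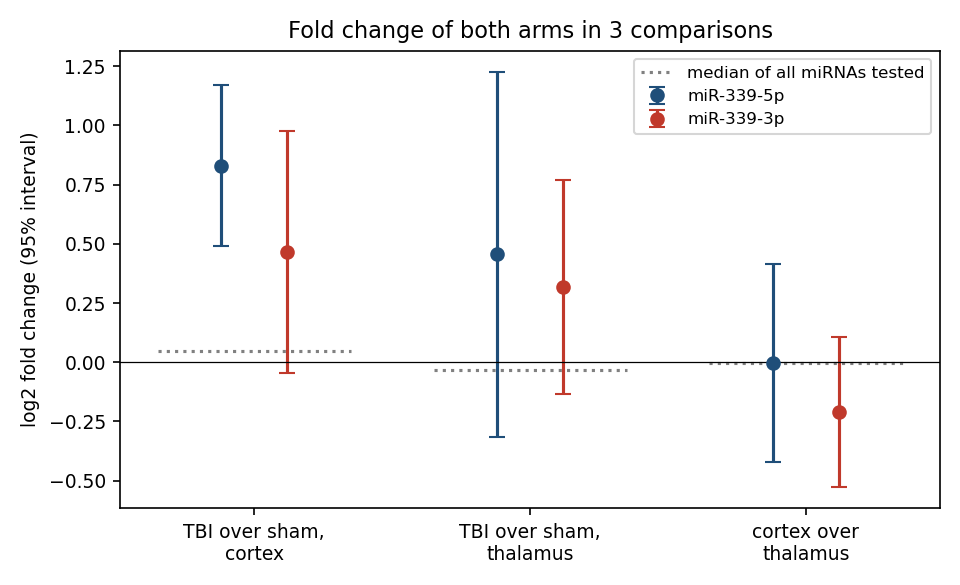
Log2 fold change of miR-339-5p and miR-339-3p with 95% intervals from edgeR, for TBI over sham in each region and for cortex over thalamus. Dotted lines mark the median of all miRNAs tested. In thalamus and between regions the intervals of both arms include 0. The cortical values are 0.83 and 0.47, and the first of them chose the 5p arm. The cortical interval of miR-339-3p, from -0.046 to 0.98, includes 0 as well.

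A feature of the thalamic libraries went with the level of the 5p arm. The shallowest library of each thalamic group held its lowest level of miR-339-5p. Sham rat 55, with 523298 miRNA reads, had 8 reads of the 5p arm (17.9 CPM, 95% Poisson interval from 7.73 to 35.3 CPM). TBI rat 56, with 538194 reads, had 31 reads (61.0 CPM). The highest thalamic levels of the 5p arm, 175, 143 and 139 CPM, were in the 3 deepest libraries.

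Over the 12 thalamic libraries, log2 CPM of miR-339-5p and log2 depth correlated with Pearson's r = 0.85 (p = 6e-05, permutation test, adjusted p = 0.00072 over 12 relations of depth with both arms) and Spearman's rho = 0.84 (permutation p = 0.00108, adjusted p = 0.013). Without the 2 libraries farthest from the median depth, r was 0.81. This relation was looked for after the levels had been seen. Across the 407 miRNAs, 96.8% had a lower r with depth in thalamus, and the median was 0.14. Within the 6 TBI rats r was 0.79 (exact permutation p = 0.0236, adjusted p = 0.0944), with a rho of 0.94 (exact permutation p = 0.0167, adjusted p = 0.10). Within the 6 sham rats r was 0.96 (exact permutation p = 0.0125, adjusted p = 0.075), with a rho of 0.77 (exact permutation p = 0.103, adjusted p = 0.408). Without the 2 farthest libraries, r within sham was 0.39.

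For the 3p arm, r with depth over the 12 thalamic libraries was -0.26 (permutation p = 0.424, adjusted p = 0.672), with rho = -0.31 (permutation p = 0.330, adjusted p = 0.661), and r was 0.050 without the 2 farthest libraries. In cortex, r of the 5p arm with depth was -0.18 (permutation p = 0.566, adjusted p = 0.672), with rho = -0.13 (permutation p = 0.701, adjusted p = 0.779), and without the 2 farthest r was -0.32. That of the 3p arm over the 12 cortical libraries was 0.19 (permutation p = 0.561, adjusted p = 0.672), with rho = 0.17 (permutation p = 0.602, adjusted p = 0.779), and r was 0.025 without the 2 farthest. Within the 6 cortical sham libraries r of the 3p arm reached 0.83 (exact permutation p = 0.0486, adjusted p = 0.146), with a rho of 0.66 (exact permutation p = 0.175, adjusted p = 0.42), and r was 0.58 without the 2 farthest. The cortical difference between TBI and sham was 0.82 with log2 depth as a covariate, and 0.75 without the 3 cortical libraries of under 1000000 reads. In thalamus, the difference of the 5p arm with depth as a covariate was 0.42 (SE 0.21, adjusted p = 0.442, edgeR), and over all alternatives its adjusted p ran from 0.442 to 0.977. Mean depth in thalamus was 2119823 reads (SD 1016729) over the 6 TBI rats and 2005580 reads (SD 1205844) over the 6 controls.

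**Figure D3:**
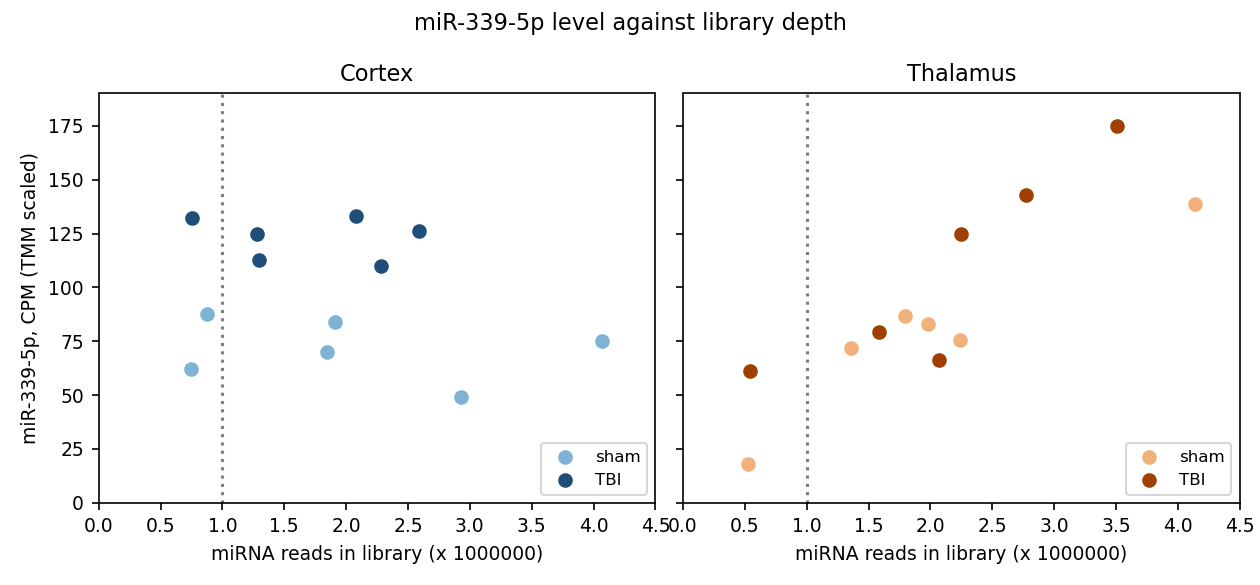
miR-339-5p level in TMM-scaled CPM against the number of miRNA reads of each library, for cortex (left) and thalamus (right), with 6 sham and 6 TBI libraries in each panel and a dotted line at 1000000 reads. In thalamus the level runs from 17.9 CPM in the shallowest library to 139 CPM or more in the 3 deepest (r = 0.85 on log2 scales), and in cortex the TBI points lie above the sham points at every depth.

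Between the regions, averaged over TBI and sham, neither arm differed past the threshold, where 40.3% of the 407 miRNAs did. This main fit did not pair the 2 libraries of a rat. With the rat as a block, neither arm passed, while 104 miRNAs were higher and 92 lower in cortex. In the main fit, the log2 fold change of cortex over thalamus was -0.0049 for miR-339-5p (SE 0.20, 95% interval from -0.42 to 0.41, adjusted p = 0.991, edgeR). Its sign turned in 8 of 19 alternatives, its value ran from -0.33 under library size alone to 0.12 with depth as a covariate, and no alternative passed the threshold. For miR-339-3p it was -0.21 (SE 0.15, 95% interval from -0.53 to 0.11, adjusted p = 0.279, edgeR). Under scaling by library size alone, which lowers the median of all miRNAs to -0.32, the 3p value was -0.52 and passed (adjusted p = 0.00529, edgeR), while in the other 18 alternatives it did not, with an adjusted p of up to 0.697.

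In order of the mean, miR-339-5p was at 123 CPM in TBI cortex, 108 CPM ± 46.3 (SD, n = 6) in TBI thalamus, 79.0 CPM ± 38.6 (SD, n = 6) in sham thalamus and 71.3 CPM in sham cortex. For miR-339-3p the order was TBI thalamus, TBI cortex, sham thalamus and sham cortex. In both orders each group overlapped with the next in range. Among the 407 miRNAs past the low-count filter, the mean level of the 5p arm ranked between 206 and 231 in the 4 groups. That of the 3p arm ranked between 266 and 285, so that both were mid-abundant to low among the miRNAs kept.

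The 5p arm held more reads than the 3p arm in 23 of the 24 libraries. Its share of the reads of both arms reached 82.6% in the cortex of TBI rat 22. In the thalamus of sham rat 55 it was 33.3% of 24 reads (95% Clopper-Pearson interval from 15.6 to 55.3%), the single library with more 3p than 5p reads. The next lowest share was 54.4% in the thalamus of TBI rat 56, which was the other thalamic library below 1000000 reads. Averaged over libraries, reads of the 5p arm exceeded those of the 3p arm 2.63-fold. Of 116 hairpins with both arms measured, 64 had the 5p arm as the major strand, and 24.1% had more even arms than miR-339.

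**Figure D4:**
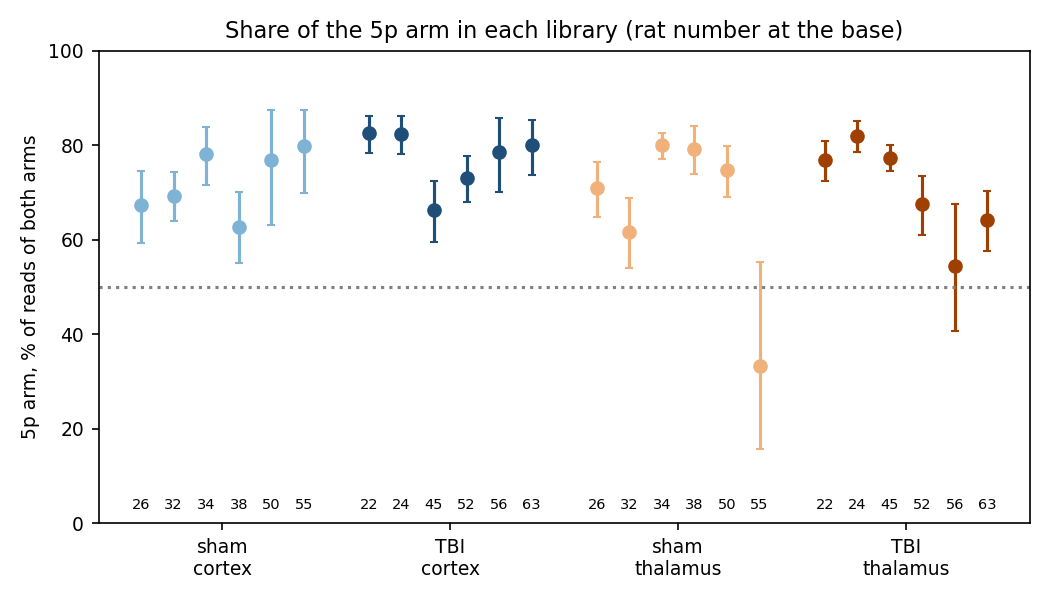
Reads of miR-339-5p as a percentage of the reads of both arms in each of the 24 libraries, with 95% Clopper-Pearson intervals and the rat number at the base. All libraries but 1 lie above the dotted line at 50%, and the exception is the thalamus of sham rat 55 at 33.3%.

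The ratio of the arms is free of library scaling, since both are counted in the same library. In thalamus, log2(5p/3p) was 1.30 ± 0.72 (SD, n = 6) in TBI and 1.08 ± 1.11 (SD, n = 6) in sham. The difference of 0.22 was within the spread (exact permutation test over 924 divisions, two-sided, p = 0.714). It turned to -0.18 without sham rat 55. Within rats, the ratio was 0.40 higher in cortex than in thalamus on average and was higher in 8 of 12 rats (exact sign-flip permutation test, two-sided, p = 0.241). This difference rested on the shallow libraries, as it was 0.18 without sham rat 55 and 0.020 in the 9 rats with at least 1000000 reads in both regions. In cortex the ratio was 1.78 ± 0.50 (SD, n = 6) in TBI and 1.41 ± 0.49 (SD, n = 6) in sham, which again is a description.

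From rat to rat, no relation between the levels of the arms passed the test. Of 8 relations tested, 4 between the arms within a group and 4 between the regions of a rat, none passed after adjustment. The relation between arms with the lowest p was that in TBI cortex, with r = -0.74 (exact permutation p = 0.0986, adjusted p = 0.461) and a rho of -0.66 (exact permutation p = 0.175, adjusted p = 0.70), and without the 2 farthest libraries r was 0.30. The relation between regions with the lowest p was that of miR-339-3p in TBI rats, with r = 0.71 (exact permutation p = 0.115, adjusted p = 0.461) and a rho of 0.66 (exact permutation p = 0.175, adjusted p = 0.70), and without the 2 farthest r was 0.57. For the 5p arm, cortex and thalamus of the same TBI rat had r = -0.18 (exact permutation p = 0.661, adjusted p = 0.815) with a rho of -0.09 (exact permutation p = 0.919, adjusted p = 0.919).

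Other miRNAs followed the 5p arm more closely than its own partner did. Over the 24 libraries, which share region, injury and depth differences, the 5 of 335 miRNAs with the highest correlation of log2 CPM with miR-339-5p were miR-19b-3p (r = 0.82), miR-140-5p (r = 0.79), miR-142-5p (r = 0.77), miR-125b-5p (r = 0.74) and miR-365-3p (r = 0.74). miR-142-5p is one of the leukocyte and microglial markers above, and none of the others was among these 5. The 3p arm ranked 148 in this list with r = 0.11, and the median r of all was 0.04.

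For miR-339-3p, the 5 closest were miR-375-3p (r = 0.65), miR-140-3p (r = 0.61), miR-25-3p (r = 0.59), miR-182 (r = 0.58) and miR-34b-3p (r = 0.57). The first of them, miR-375-3p, is known from pancreatic islets and also belongs to the list of candidates. None of these miRNAs was among those closest to the 5p arm. Both arms of the miR-140 hairpin were named, the 5p arm with miR-339-5p and the 3p arm with miR-339-3p. These correlations are descriptions over libraries and carry no test.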

How the data were processed

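Small RNA of 24 libraries was analysed. Per the study's methods, the authors excised inserts of miRNA length, sequenced them, checked reads with FastQC, mapped them to the rat assembly RGSC3.4 and annotated miRNAs with miRBase. The aligner and the handling of shared reads were not given in the sources used here. The authors deposited whole read counts per miRNA, and CPM tables in which each library is scaled to 1000000 over the listed features. Groups and rat numbers came from the sample titles. Both arms, the gene lists and the relations examined were chosen with earlier results of these data known.

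The counts went through filterByExpr, TMM and glmQLFTest (edgeR 4.0.16, R 4.3.3), with injury fitted region by region and the region contrast over all 24 libraries, and with Benjamini-Hochberg adjustment over all miRNAs and a threshold of 0.05. The SE of an edgeR estimate was recovered from its F statistic. log2 CPM used a prior count of 2, and arm ratios added 0.5 to both counts. The correlations used SciPy and NumPy with all 720 orders of 6, or 100000 resamples for 12 libraries. Alternatives were DESeq2 1.42.0, limma 3.58.1 on log2(CPM + 1) of the deposited small RNA CPM, other scalings and filters, left-out libraries and the replicate block. On simulated data with 200 miRNAs changed 1 log2 unit, the thalamus fit (390 miRNAs) recovered 71% and the region fit (407 miRNAs) 95.5%. The simulated spread was the one typical of each level, and the change was larger than the 0.45 estimated for miR-339-5p in thalamus. These shares therefore do not give the power for miR-339-5p.

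Named were both arms, miRNAs with their seeds, the 5 miRNAs most correlated with each arm among those of at least 10 CPM in each region, the study's candidate and reference miRNAs, and cell type markers. The rat number pairs the regions of 1 animal, as the titles give it. Deviations from the group means correlated between the regions of a rat with a median r of 0.38 (from -0.18 to 0.64, over 0.1 in 8 of 12 rats). In TBI rats r ran from 0.30 to 0.64. The rats not over 0.1 were all sham: rat 26 (-0.017), rat 32 (-0.17), rat 50 (-0.18) and rat 55 (-0.067). For these sham rats the pairing rests on the titles alone. No 2 libraries of a group were duplicates (chi-square per degree of freedom of at least 31.4 over 60 pairs). Depth ran from 523298 to 4139901 miRNA reads, and 1 read was worth up to 2.24 CPM. Mature sequences came from RefSeq GRCr8, another build than the authors used, so no coordinates were converted.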

Additional observations from a re-analysis of the deposited data

How the results depend on the processing

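In thalamus, the difference between TBI and sham kept its direction and stayed short of the threshold for both arms in all 21 alternatives. Leaving out 1 library gave 0.33 to 0.65 for miR-339-5p and 0.27 to 0.51 for miR-339-3p. The cortical description ran from 0.73 to 0.85 for the 5p arm and from 0.23 to 0.55 for the 3p arm when 1 library was left out. By library size only it was 1.03 and 0.70, scaled to the 4 reference miRNAs 0.83 and 0.43, and in the fit of all 24 libraries 0.79 and 0.42.

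The region value of miR-339-5p lies near 0 and changed sign: it was 0.071 with the replicate block, 0.035 scaled to the 4 reference miRNAs, 0.0070 with no filter and 0.12 with depth as a covariate, against -0.33 by library size only, -0.17 without libraries under 1000000 reads and -0.16 to 0.084 without 1 rat. For miR-339-3p it was -0.52 by library size only and -0.34 to -0.18 without 1 rat. The replicate block changed no call of either arm, and no injury contrast can hold it, as TBI and sham share no rat. The difference of the injury effects ran from 0.18 to 0.61 (5p) and from -0.034 to 0.23 (3p) without 1 rat, and was 0.62 and 0.40 by library size only. The arm ratio difference in thalamus ran from -0.18 to 0.43, in cortex from 0.25 to 0.54 and within rats from 0.18 to 0.55 without 1 rat. With no replicate block, the within-rat difference of 0.40 had a permutation p = 0.193.

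Correlations of 6 libraries turned sign. Without the 2 farthest libraries, r between the arms was 0.30 in TBI cortex and 0.32 in sham cortex, and r between the regions for the 5p arm was 0.20 in TBI and 0.75 in sham rats. By library size only, r between the arms was 0.16 in TBI thalamus and 0.29 in sham thalamus, and r between the regions for the 5p arm was 0.092 in TBI rats.

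The number of miRNAs past the threshold moved from 21 to between 1 and 55 in cortex and from 2 to between 0 and 14 in thalamus. The cause was not tested. The alternatives with depth and without libraries under 1000000 reads were added after seeing the data. The fewest reads were 8 for the 5p arm, in the thalamus of sham rat 55, and 12 for the 3p arm, in the cortex of sham rat 50.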
